A study of Mus musculus with 10 samples.

Results

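The genes described here encode ligands and receptors of vascular endothelial growth factor (VEGF) and angiopoietin signalling. They were chosen by name, with earlier results of these data known. Each of the 10 matched 1 row of the 57010 in the count table through its GENCODE M21 symbol. The ligands are Vegfa, Vegfb, Pgf, Angpt1 and Angpt2, and the receptors are Flt1, Kdr, Flt4, Nrp1 and Tek. RNA was sequenced from whole retinas of 10 mice aged 6 to 8 weeks, collected on day 14 after an injection into the vitreous. One group of 5 mice received AAV2-GFP and the other group of 5 received AAV206-GFP, adeno-associated virus vectors that both carry the green fluorescent protein reporter. The study's title describes the vector under study as specific for the retinal pigment epithelium. The promoter driving the reporter, the strain and the sex are not given in the sources used here. Uninjected eyes were not analysed here, and every value below therefore sets one vector against the other.

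VEGF-A, VEGF-B and placental growth factor are secreted ligands. VEGF-A binds both VEGFR1 (Flt1) and VEGFR2 (Kdr), whereas VEGF-B and placental growth factor bind VEGFR1 and not VEGFR2. VEGFR2 is the main signalling receptor of endothelial cells, VEGFR1 binds VEGF-A tightly and also exists as a soluble form that captures it, VEGFR3 (Flt4) serves VEGF-C and VEGF-D, and neuropilin 1 (Nrp1) is a co-receptor. Angiopoietin 1 activates the receptor Tie2 (Tek) and stabilises vessels, and angiopoietin 2 opposes it in many settings. In the retina, Müller glia and other cells that sense low oxygen supply VEGF-A to the vessels, and the pigment epithelium supplies it to the choroid.

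Libraries held between 10989843 and 12752604 counts, and at this depth 3 counts correspond to 0.232 to 0.273 CPM (counts scaled to the same TMM-adjusted total in every library). This floor covers counting error only, since reads amplified by PCR are not independent molecules. The retinal label matched its markers, with Müller glia markers summing to 3177 to 4091 CPM and ganglion cell markers to 866 to 1073 CPM over the 10 libraries. AAV2-GFP replicate 1 stood apart. Its microglia and macrophage markers summed to 261 CPM against 26.3 to 50.4 CPM in the other AAV2-GFP mice and 21.6 to 30.05 CPM with AAV206-GFP. It and AAV2-GFP replicate 4 had the highest mean log2 level of 10 interferon and antigen presentation genes, at 5.88 and 5.53, with 2.85 to 4.13 in the other 8 libraries. All 10 genes described here had whole counts in every library, so none shows reads divided with another gene.

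Flt1 and Kdr, both receptors, differed between the vectors in opposite directions: Flt1 was higher and Kdr was lower with AAV206-GFP. Of the 10 genes, 9 passed the filter on low counts (filterByExpr, minimum count 10), and Pgf did not. In edgeR's quasi-likelihood test with Benjamini-Hochberg adjustment over 15539 genes, 1 of the 9 was higher and 1 was lower at an adjusted p-value under 0.05. Over all tested genes 5.95% were higher and 5.3% lower, 11.2% in all. The groups did not overlap for 3 of the 9 tested genes, Flt1, Kdr and Vegfb, against 9.78% of all tested genes. The median log2 fold change of the 9 genes was -0.14, and that of all tested genes was -0.0095.

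**Figure D1:**
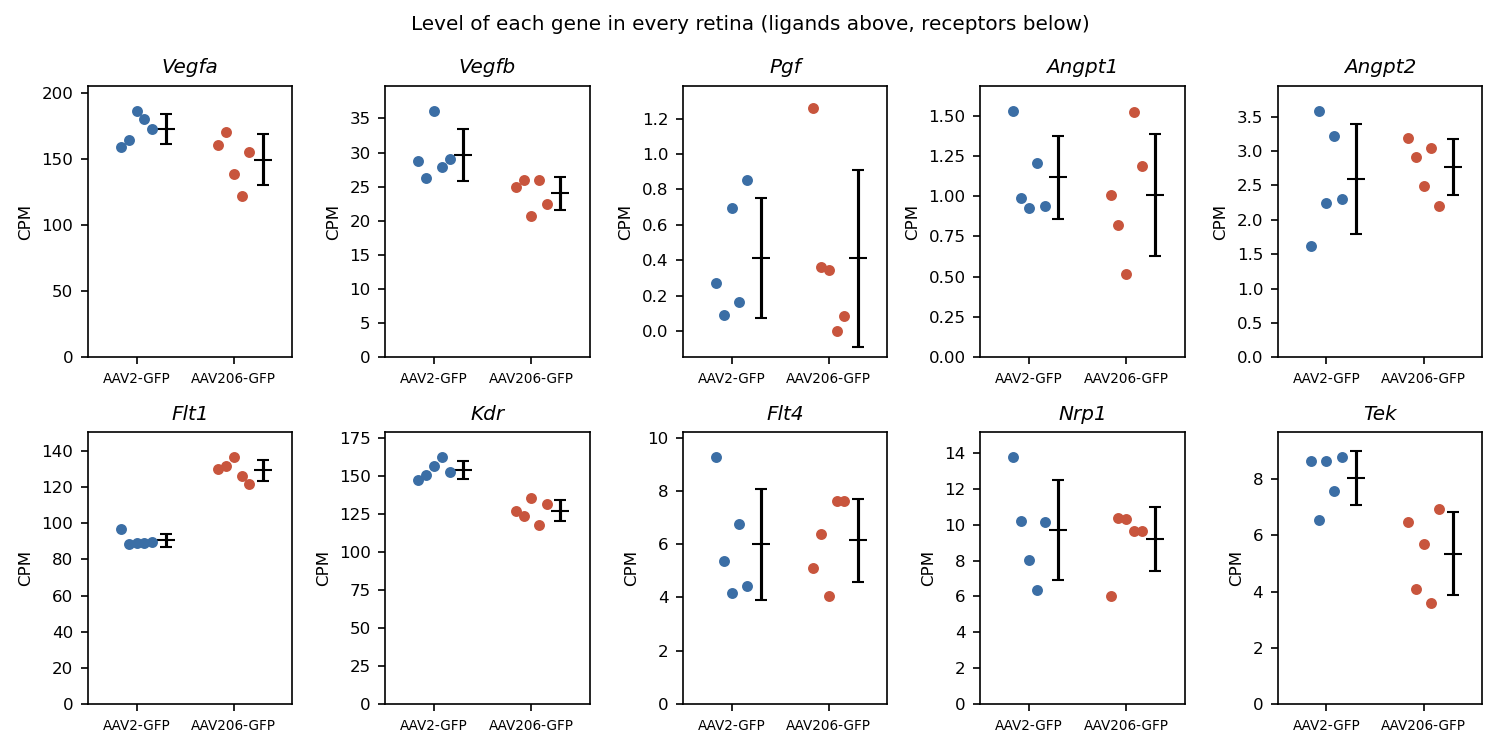
CPM of each of the 10 genes in every retina (points, 5 per vector in the order of their replicate numbers), with the mean and SD beside them; ligands are in the upper row and receptors in the lower row. The points of Flt1, Kdr and Vegfb do not overlap between the vectors, and those of the other 7 genes do.

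Flt1 (ENSMUSG00000029648, chr5:147561604-147726011 on the minus strand of GRCm38) encodes VEGFR1. Its level was 96.6, 88.5, 88.9, 89.0 and 89.6 CPM in AAV2-GFP replicates 1 to 5, and 130.1, 132, 137, 126 and 122 CPM in AAV206-GFP replicates 1 to 5. Every AAV206-GFP retina was above every AAV2-GFP retina. The means were 90.5 ± 3.42 and 129 ± 5.58 CPM (SD, n = 5), a rise of 42.7%, or 0.51 ± 0.06 (SE) on the log2 scale (adjusted p = 3.7e-05 in edgeR). The 95% interval of the log2 fold change was 0.39 to 0.63, and Flt1 ranked 39 by p-value among the tested genes. Counts per gene do not separate the membrane-bound from the soluble form of VEGFR1. In whole tissue, a change in the number of cells of a type and a change in RNA per cell cannot be told apart, for a rise or a fall.

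Kdr (ENSMUSG00000062960, chr5:75932827-75978458 on the minus strand of GRCm38) encodes VEGFR2. Its level was 147, 150.4, 157, 162 and 153 CPM in AAV2-GFP replicates 1 to 5, and 127, 124, 135, 118 and 132 CPM in AAV206-GFP replicates 1 to 5. All 5 AAV206-GFP retinas lay below all 5 AAV2-GFP retinas, so the order of the vectors was the reverse of that for Flt1. The means were 154 ± 5.81 and 127 ± 6.91 CPM (SD, n = 5), which differed by -0.28 ± 0.06 (SE) in log2 units (adjusted p = 0.00635 in edgeR; 95% interval -0.40 to -0.15).

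Flt1 and Kdr lie on the same chromosome and strand but far apart, and the 250 bases before the annotated start of each are shown because these genes carried the difference. Both are from RefSeq on GRCm38.p6, written 5′ to 3′ on the gene's strand, at chr5:147726012-147726261 (Flt1) and chr5:75978456-75978705 (Kdr). Capitals mark matches on either strand to the TATA box TATAAA, the ETS core CCGGAA and the GC box GGGCGG.
Flt1: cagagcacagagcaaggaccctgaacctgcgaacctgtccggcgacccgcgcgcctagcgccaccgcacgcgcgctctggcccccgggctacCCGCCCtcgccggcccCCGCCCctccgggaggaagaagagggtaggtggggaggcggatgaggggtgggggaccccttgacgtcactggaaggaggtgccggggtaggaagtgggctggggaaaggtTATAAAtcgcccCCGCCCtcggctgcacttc
Kdr: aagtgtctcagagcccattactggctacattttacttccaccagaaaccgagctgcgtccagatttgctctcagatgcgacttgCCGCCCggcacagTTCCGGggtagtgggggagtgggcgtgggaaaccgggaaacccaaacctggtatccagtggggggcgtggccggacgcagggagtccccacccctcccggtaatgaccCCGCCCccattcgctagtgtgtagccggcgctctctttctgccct

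The Flt1 window holds 1 TATA box, 31 to 26 bases before the start, and 3 GC boxes. The Kdr window holds no TATA box, 2 GC boxes and 1 ETS core, 153 to 148 bases before the start. Among 32851 windows of the same length, 12.4% hold TATAAA, 32.7% hold GGGCGG and 3952 of the 32851 hold CCGGAA; no match overlapped another motif in these 2 windows. Both windows are rich in G and C, at 70.4% for Flt1 and 61.6% for Kdr against a median of 52.4% over all windows. RefSeq windows matched 8 of the 10 genes, in 10 windows, all but Angpt1 and Angpt2. The core of the hypoxia response element, ACGTG on either strand, is in 1 of these 10 windows, the second start of Vegfa, and in 16.6% of all windows. These matches describe the sequence only.

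The opposite changes were also compared within each library. Such a ratio does not depend on how libraries are scaled. The ratio of Flt1 to Kdr counts was 0.655, 0.589, 0.568, 0.548 and 0.587 in AAV2-GFP replicates 1 to 5, and 1.03, 1.06, 1.01, 1.07 and 0.924 in AAV206-GFP replicates 1 to 5. Kdr counts thus exceeded Flt1 counts in every AAV2-GFP retina, and the counts were close to equal with AAV206-GFP. The mean log2 ratio was -0.77 ± 0.10 and 0.02 ± 0.09 (SD, n = 5), a difference of 0.79 (exact permutation test, two-sided, p = 0.00794, the smallest value that 252 relabellings allow; adjusted over 4 ratios, 0.0159).

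**Figure D2:**
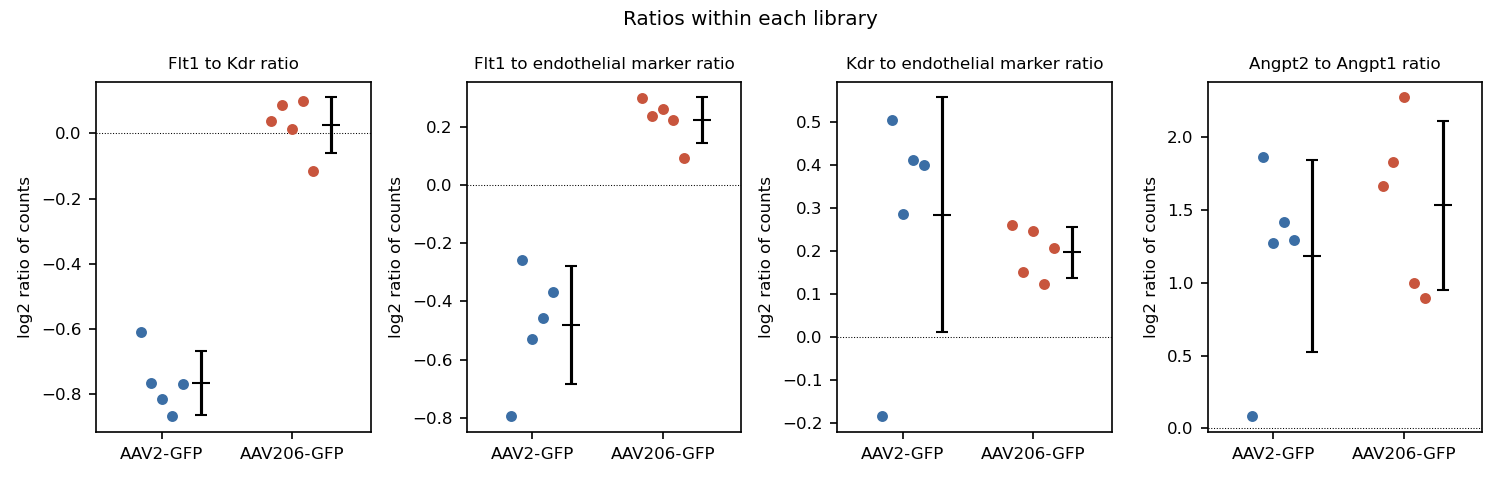
Log2 ratios of counts within each library (points, 5 per vector, with mean and SD beside them) for Flt1 to Kdr, Flt1 and Kdr to the summed endothelial markers, and Angpt2 to Angpt1. The groups do not overlap in the 2 panels that hold Flt1 as the numerator, and they overlap in the other 2.

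Flt1 and Kdr were next set against 15 endothelial cell markers, a list that holds none of the 10 genes, since blood vessels are their best known site. The summed endothelial markers were 168, 106, 128, 122 and 116 CPM in AAV2-GFP replicates 1 to 5 and 106 to 114 CPM with AAV206-GFP, and the AAV206-GFP sums lay at or below most AAV2-GFP sums. Kdr alone, at 118 to 162 CPM, was about as high as the sum of the 15 markers. Which cells held the Flt1 and Kdr RNA was not tested, so ratios to these markers do not measure receptor RNA per vessel. Of 14 tested markers 1 was past the threshold, beside 11.2% of all tested genes, so nothing is read from this count. It was the tight junction gene Cldn5, which differed by -0.64 ± 0.16 (SE) in log2 units (adjusted p = 0.0192 in edgeR). Cldn5 was not past it without AAV206-GFP replicate 4 (edgeR adjusted p = 0.0527) or without both AAV2-GFP replicates 1 and 4 (edgeR adjusted p = 0.0711). The median log2 fold change of the list was -0.31, and 3 markers were on the positive side, Pecam1 (0.21), Ramp2 (0.36) and Slco1a4 (0.28), none past the threshold.

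The ratio of Flt1 to the summed endothelial markers was 0.577, 0.836, 0.693, 0.729 and 0.775 with AAV2-GFP and 1.23, 1.18, 1.197, 1.17 and 1.07 with AAV206-GFP, in the order of replicate numbers. The groups did not overlap. Mean log2 ratios differed by 0.70 (two-sided p = 0.00794 by exact permutation, 0.0159 once adjusted). The separate Flt1 levels and the marker sums above already left no room for overlap, so this p-value is not independent support. For Kdr the groups overlapped. Its ratio to the markers was 0.880, 1.42, 1.22, 1.33 and 1.32 with AAV2-GFP and 1.0886 to 1.198 with AAV206-GFP, a log2 difference of -0.09 (two-sided p = 0.556 by exact permutation, also 0.556 once adjusted). AAV2-GFP replicate 1 had the lowest ratio of all 10 libraries. Without that library the log2 difference was -0.20 (exact permutation test, adjusted p = 0.0106). It was also -0.20 without both AAV2-GFP replicates 1 and 4 (exact permutation test, adjusted p = 0.0238). Of the 10 leave-one-out results, only 1 passed the threshold, that without AAV2-GFP replicate 1, and adjusted p reached 0.881 (exact permutation test). That library stood out by this same ratio, so these p-values are no separate support for a Kdr difference.

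Some of the other marker lists differed between the vectors and others did not, beside 11.2% of all tested genes past the threshold. The part of these lists in the Flt1 and Kdr results was not tested. Summed red blood cell genes were 67.5 to 85.6 CPM with AAV2-GFP and 100.3 to 318 CPM with AAV206-GFP, with 4 of 5 genes higher. Counts of Hba-a1, Hba-a2 and Hbb-bs carried decimals in all 10 libraries, a sign of reads divided with other genes. The calls in this list are therefore not all separate results. Summed lens genes were 15.1 to 36.2 CPM and 1.61 to 16.5 CPM, with 2 of 4 tested genes lower, Crybb2 and Cryaa, past the threshold in 8 and 5 of 10 leave-one-out fits. Pericyte and smooth muscle markers, at 123 to 139 and 106 to 127 CPM, had 0 of 8 tested genes past the threshold, and Müller glia markers had 0 of 7. Pigment epithelium markers summed to 15.5 to 46.7 and 19.4 to 28.02 CPM, with 1 of 8 tested genes lower, Rgr (log2 fold change -0.79, edgeR adjusted p = 0.0328, past the threshold in 3 of 10 fits that left out a library). Astrocyte and horizontal cell lists had 0 genes past the threshold, the ganglion cell list had 1 of 7 lower (Pou4f1) and the microglia list 2 of 8 lower (C1qa and C1qc, past the threshold in 5 and 3 of those 10 fits). Lymphocyte markers were too low to test. No marker of any list was at 0 in every library.

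Among the ligands, no gene passed the threshold. Vegfa (ENSMUSG00000023951), which encodes VEGF-A, was at 159.8, 165, 187, 181 and 173 CPM in AAV2-GFP replicates 1 to 5 and at 161, 171, 139, 122 and 156 CPM in AAV206-GFP replicates 1 to 5. The groups overlapped, with 3 AAV206-GFP retinas below all AAV2-GFP retinas. The means were 173 ± 11.1 and 149.8 ± 19.2 CPM (SD, n = 5), with a log2 fold change of -0.21, a standard error of 0.08 and a 95% interval of -0.38 to -0.03 (adjusted p = 0.110 in edgeR).

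Vegfb (ENSMUSG00000024962), which encodes the VEGFR1 ligand VEGF-B, was at 28.7, 26.3, 36.1, 27.9 and 29.1 CPM in AAV2-GFP replicates 1 to 5 and at 25.01, 26.03, 20.7, 25.96 and 22.4 CPM in AAV206-GFP replicates 1 to 5. The groups did not overlap, but the gap between 26.3 and 26.03 CPM was small. The log2 difference was -0.30 ± 0.10 (SE), with a 95% interval of -0.51 to -0.09 (edgeR adjusted p = 0.0577). It was past the threshold in 1 of 11 other settings, DESeq2 (adjusted p = 0.0388), and in 1 of 10 leave-one-out fits (without AAV2-GFP replicate 2, edgeR adjusted p = 0.0437).

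Pgf (ENSMUSG00000004791), which encodes placental growth factor, was near the floor in most libraries. Its counts were 3, 1, 9, 2 and 10 in AAV2-GFP replicates 1 to 5 and 15, 4, 4, 0 and 1 in AAV206-GFP replicates 1 to 5. AAV206-GFP replicate 1 held most of the counts of its group. The means were 0.414 ± 0.340 and 0.410 ± 0.500 CPM (SD, n = 5; two-sided p = 0.976 by exact permutation), and at this depth no difference was detectable.

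The other VEGF receptors had wide intervals that spanned 0. Flt4 (ENSMUSG00000020357), which encodes VEGFR3, was at 9.27, 5.38, 4.17, 6.76 and 4.43 CPM in AAV2-GFP replicates 1 to 5 and at 5.12, 6.37, 4.04, 7.61 and 7.61 CPM in AAV206-GFP replicates 1 to 5. Its log2 fold change was 0.04 with a 95% interval of -0.47 to 0.54 (edgeR adjusted p = 0.941). Nrp1 (ENSMUSG00000025810), the co-receptor, was at 13.8, 10.2, 8.03, 6.36 and 10.1 CPM and at 6.04, 10.4, 10.3, 9.67 and 9.64 CPM in the same order. Its log2 fold change was -0.07 with a 95% interval of -0.49 to 0.35 (edgeR adjusted p = 0.841). In both genes AAV2-GFP replicate 1 had the highest level of its group, and the sign of the small difference changed when single libraries were left out.

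**Figure D3:**
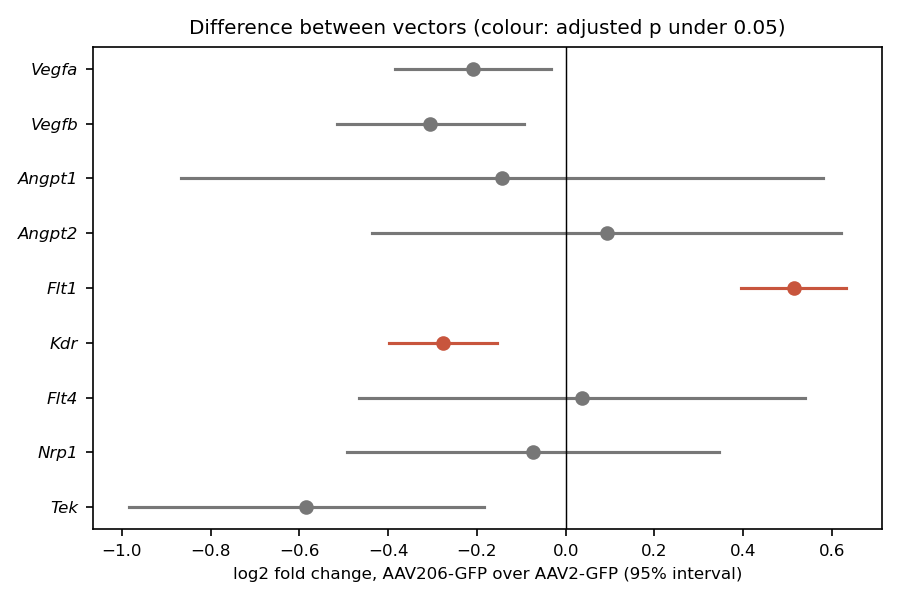
Log2 fold change of AAV206-GFP over AAV2-GFP with its 95% interval for the 9 tested genes; coloured points are past an adjusted p of 0.05. Flt1 lies at 0.51 and Kdr at -0.28, the intervals of Vegfa, Vegfb and Tek lie below 0 without passing the adjusted threshold, and those of the other 4 genes span 0.

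In the angiopoietin system the receptor gene came closest to the threshold without passing it. Tek (ENSMUSG00000006386), which encodes Tie2, was at 8.64, 6.55, 8.65, 7.57 and 8.78 CPM in AAV2-GFP replicates 1 to 5 and at 6.46, 4.096, 5.68, 3.58 and 6.94 CPM in AAV206-GFP replicates 1 to 5. Only AAV206-GFP replicate 5 lay within the AAV2-GFP range. The means were 8.04 ± 0.967 and 5.35 ± 1.46 CPM (SD, n = 5), with a log2 fold change of -0.58, a standard error of 0.19 and a 95% interval of -0.98 to -0.18 (edgeR adjusted p = 0.0568). Its call depended on the setting: it passed in 5 of 11 other settings, with adjusted p-values of 0.0259 to 0.129 over the 11, and in 2 of 10 fits that left out a library. Tie1, the partner receptor of Tie2, was named after its values were seen. It was at 5.06 ± 0.425 and 3.40 ± 0.599 CPM (SD, n = 5) without overlap, which differed by -0.57 ± 0.18 (SE) in log2 units (adjusted p = 0.0514 in edgeR, 0.0355 to 0.166 over 11 other settings).

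The angiopoietins were low. Angpt1 (ENSMUSG00000022309), the Tie2 agonist, had 11 to 17 counts per library with AAV2-GFP and 6 to 17 with AAV206-GFP, with means of 1.12 ± 0.257 and 1.01 ± 0.378 CPM (SD, n = 5). Its exons overlap the antisense gene Gm17473 over 737 bases in GENCODE M21, and whether the counting used strand is not given in the sources used here, so its counts are uncertain. Angpt2 (ENSMUSG00000031465), the context-dependent antagonist, had 18 to 40 and 26 to 38 counts, with means of 2.59 ± 0.796 and 2.77 ± 0.410 CPM (SD, n = 5). The 95% intervals of the log2 fold changes were -0.87 to 0.58 for Angpt1 and -0.44 to 0.62 for Angpt2 (edgeR adjusted p = 0.819 and 0.841). The ratio of Angpt2 to Angpt1 counts was 1.06, 3.64, 2.42, 2.67 and 2.45 with AAV2-GFP and 3.17, 3.56, 4.83, 2.00 and 1.86 with AAV206-GFP, in the order of replicate numbers. Its mean log2 difference of 0.35 did not exceed the spread between mice (two-sided p = 0.437 by exact permutation, 0.556 once adjusted). It was 0.070 without AAV2-GFP replicate 1 and 0.52 without AAV2-GFP replicate 2.

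Levels of different genes were compared per kilobase of annotated exon. Over all 10 libraries the order of mean CPM per kilobase was Vegfa (37.7), Vegfb (16.7), Kdr (15.6), Flt1 (8.14), Tek (1.42), Nrp1 (0.967), Flt4 (0.738), Angpt2 (0.727), Angpt1 (0.204) and Pgf (0.142). Vegfa stood above Vegfb, Kdr above Flt1, Flt1 above Tek and Angpt2 above Angpt1 with no overlap between their ranges over libraries. Neighbours whose ranges overlapped were Vegfb and Kdr, Tek and Nrp1, Nrp1 and Flt4, Flt4 and Angpt2, and Angpt1 and Pgf. On this scale Kdr exceeded Flt1 in all 10 retinas, at 17.04 ± 0.644 against 6.70 ± 0.253 with AAV2-GFP and 14.1 ± 0.766 against 9.57 ± 0.413 with AAV206-GFP (SD, n = 5). The annotated exons span 13504 bases for Flt1, 9030 bases for Kdr and 1605 bases for Vegfb, whose mean CPM (26.8) was below that of both receptors before division by length.

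Beyond the 10 genes, 65 other genes of the pathway were listed, of which 56 were tested and 10 were past the threshold, 2 higher and 8 lower. This was 17.9% of the tested list beside 11.2% of all tested genes, with a median log2 fold change of -0.11 beside -0.0095. The count was 4 without AAV2-GFP replicate 4, 4 without AAV206-GFP replicate 2, 6 without AAV2-GFP replicate 3 and 2 (Map2k2 and Pdk1) without both AAV2-GFP replicates 1 and 4. It was 17 with DESeq2. The group is therefore described by its members, and nothing is read from the count.

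**Figure D4:**
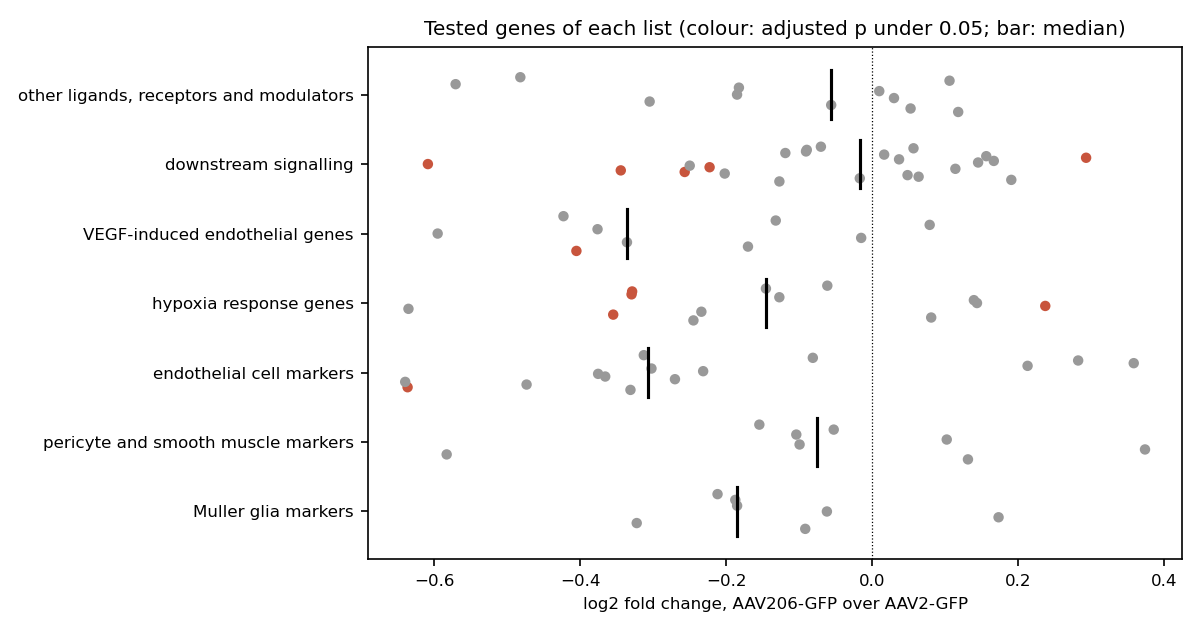
Log2 fold change of AAV206-GFP over AAV2-GFP for each tested gene (points) of 4 pathway lists and 3 cell type lists, with the median of each list as a bar; coloured points are past an adjusted p of 0.05. The medians of the 7 lists lie between -0.34 for VEGF-induced endothelial genes and -0.02 for downstream signalling.

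Of the other ligands, receptors and modulators, 0 of 11 tested genes were past the threshold, with a median log2 fold change of -0.06. Of 23 tested genes for signalling below the receptors, 1 was higher and 4 were lower, beside 11.2% of all tested genes past the threshold. Plcg1, which encodes the phospholipase recruited by VEGFR2, was at 41.7 ± 4.52 and 51.0 ± 4.82 CPM (SD, n = 5), which differed by 0.29 ± 0.09 (SE) in log2 units (adjusted p = 0.0382 in edgeR). Map2k2, a kinase that activates ERK, was at 86.2 ± 5.58 and 67.9 ± 8.84 CPM (SD, n = 5), which differed by -0.34 ± 0.08 (SE) in log2 units (adjusted p = 0.0152 in edgeR). Mapk14, the p38 alpha kinase, Nos3, the endothelial nitric oxide synthase, and Map2k1, the companion kinase of Map2k2, had log2 fold changes of -0.22, -0.61 and -0.26 (adjusted p = 0.0221, 0.0320 and 0.0448 in edgeR). Map2k2 was past the threshold in all 10 fits that left out a library. Mapk14 was lost without AAV2-GFP replicate 4 and without AAV206-GFP replicate 2 (edgeR adjusted p = 0.0647 and 0.0610), and Plcg1, Nos3 and Map2k1 were each past the threshold in 3 of the 10 fits.

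Of 9 tested VEGF-induced endothelial genes, 1 was lower, a share close to the 11.2% called over all genes. The list had 8 negative log2 fold changes and a median of -0.34, beside 11 negative of 14 and a median of -0.31 in the general endothelial markers, so nothing is read as particular to it. Adamts1, a secreted metalloprotease, was at 34.4 ± 2.87 and 26.0 ± 2.98 CPM (SD, n = 5) without overlap, which differed by -0.41 ± 0.09 (SE) in log2 units (adjusted p = 0.00993 in edgeR). It was past the threshold in all 10 leave-one-out fits, and stood at an adjusted p of 0.0514 without both AAV2-GFP replicates 1 and 4. The summed level of the list was 115, 112, 119, 116 and 123 CPM in AAV2-GFP replicates 1 to 5 and 101, 89.2, 99.2, 92.6 and 104 CPM in AAV206-GFP replicates 1 to 5, without overlap. This sum includes Adamts1 and rests mostly on a few genes with high levels, so it does not describe the list as a whole.

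The hypoxia response list holds the factors that drive Vegfa in low oxygen, their regulators and their targets. Of its 13 tested genes, 1 was higher and 3 were lower, beside 11.2% of all tested genes past the threshold. Epas1, which encodes the hypoxia-inducible factor HIF-2 alpha, was at 192 ± 10.9 and 226 ± 10.96 CPM (SD, n = 5), which differed by 0.24 ± 0.06 (SE) in log2 units (adjusted p = 0.0190 in edgeR). The call on Epas1 was lost without AAV2-GFP replicate 4 and without AAV206-GFP replicate 2 (edgeR adjusted p = 0.0542 and 0.0577). The targets Pdk1, a kinase that restrains pyruvate entry into mitochondria, and Bnip3, a mitophagy receptor, had log2 fold changes of -0.33 and -0.36 (adjusted p = 0.00592 and 0.00816 in edgeR). Both were past the threshold in all 10 leave-one-out fits, and without both AAV2-GFP replicates 1 and 4 Pdk1 was (edgeR adjusted p = 0.0419) and Bnip3 was not (0.0525). P4ha1, a collagen prolyl hydroxylase subunit, had a log2 fold change of -0.33 (edgeR adjusted p = 0.0397) and passed in 3 of those 10 fits.

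Genes whose levels followed Flt1 most closely across the 10 libraries were found by the root mean square difference of log2(CPM + 1), each gene centred on its own mean, among 9355 genes. The 5 closest were 5730455P16Rik (0.05), AW554918 (0.07), Cbr4 (0.07), Xrcc5 (0.08) and Ikbkg (0.08), against a median of 0.30 over all candidates. Cbr4 encodes a carbonyl reductase, Xrcc5 the Ku80 subunit of DNA repair and Ikbkg the NEMO subunit of the kinase that activates NF-kappa B. Their log2 fold changes were between 0.47 and 0.54, beside 0.51 for Flt1, a likeness that the choice of genes fixes. Among the other VEGF and angiopoietin genes, the 6 that met the same minimum of 5 CPM had distances from Flt1 of 0.39 (Vegfa) to 0.58 (Tek).

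The Flt1 log2 fold change was 0.49 to 0.54 across the 10 leave-one-out fits and 0.51 to 0.53 over 11 other settings, past the threshold in all 21. The Kdr value was -0.30 to -0.25 and -0.28 to -0.27, also past the threshold in all 21. Without both AAV2-GFP replicates 1 and 4 the values were 0.53 for Flt1 (edgeR adjusted p = 0.000399) and -0.28 for Kdr (edgeR adjusted p = 0.0342).

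**Figure D5:**
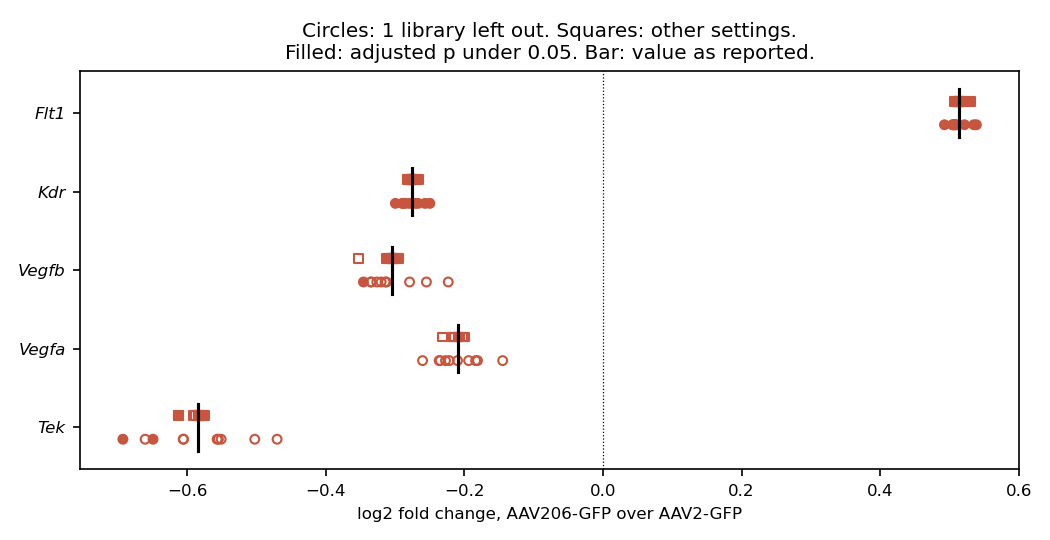
Log2 fold change of AAV206-GFP over AAV2-GFP for 5 genes in fits that left out 1 library (circles) and under other settings (squares); filled symbols are past an adjusted p of 0.05 and bars mark the values as reported. All symbols of Flt1 and Kdr are filled, those of Vegfa are open, and those of Vegfb and Tek are mixed.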

How the data were processed

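For 10 retinal libraries the authors deposited estimated counts, 1 value per gene and library, not scaled between libraries; 5.95% of values carried decimals. They were rounded to whole numbers. STAR 2.7.10b, RSEM 1.3.1 and the build mm10 are named in the submitters' processing notes; the annotation is not given in the sources used here. GENCODE M21 (GRCm38) supplied symbols, coordinates and exon lengths and held 52029 of the 57010 identifiers, so another release was used for counting and lengths may differ. Each library took its group and number from its title.

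AAV206-GFP was compared with AAV2-GFP in edgeR 4.0.16 (R 4.3.3): filterByExpr with a minimum count of 10, TMM scaling, a quasi-likelihood F test without covariates and Benjamini-Hochberg adjustment over 15539 genes, threshold 0.05. Standard errors are the absolute log2 fold change over the square root of F. The 4 ratios used exact two-sided permutation over 252 relabellings. DESeq2 1.42.0, limma 3.58.1 (voom), other scalings and filters, unrounded counts, a replicate block and left-out libraries were alternatives. In simulated counts for this comparison (15340 genes tested), edgeR recovered 80.6% of 2-fold and 59.2% of 1.5-fold changes, with 11 false among 148 calls. Smaller changes were not simulated. The estimated changes of the 9 tested genes described here were all under 1.5-fold, so these rates do not apply to them. Pairs of libraries within a group differed beyond sampling noise (chi-square per degree of freedom 3.68 to 22.3).

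The genes and lists were chosen with earlier results of these data known. Named were all 10 genes, up to 6 called genes per pathway list, up to 3 per marker list, the 5 genes closest to Flt1 (mean of at least 5 CPM, whole counts in at least 9 libraries) and Tie1, outside this rule. One gene of a marker list is not reported here.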

Additional observations from a re-analysis of the deposited data

Results flagged for a closer look

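Among 28 group results examined, 4 had an extreme value by Dixon's ratio, which sets the distance of the most extreme retina from its neighbour against the spread of the 5 (critical value 0.71); 1.4 would be reached by chance. Flt1 in AAV2-GFP replicate 1 was 96.6 CPM against 88.5 to 89.6 CPM (ratio 0.860), which lies toward the AAV206-GFP level. Vegfb in AAV2-GFP replicate 3 was 36.1 CPM against 26.3 to 29.1 CPM (ratio 0.715). Nrp1 in AAV206-GFP replicate 1 was 6.04 CPM against 9.64 to 10.4 CPM (ratio 0.831). Pgf in the same mouse was 1.26 CPM against at most 0.364 CPM (ratio 0.711), from 15 counts.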

How the results depend on the processing

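Leaving out 1 library in turn gave 2 to 4 of the 10 genes past the threshold, 4 to 12 other pathway genes and 991 to 1912 of all genes (1747 as reported; 991 without AAV2-GFP replicate 4, 1056 and 1074 without AAV206-GFP replicates 4 and 2). DESeq2 gave 4 of the 10 genes and 17 other pathway genes. Without both AAV2-GFP replicates 1 and 4 there were 985 genes in all and 2 other pathway genes, the Kdr to endothelial marker ratio was -0.20 (-0.20 to -0.032 over single libraries left out), the sign of Angpt1 turned to 0.080 and Flt4 was 0.39 (0.04 as reported). Signs also turned over single libraries left out for Flt4 (-0.072 to 0.25), Nrp1 (-0.19 to 0.086), Angpt1 (-0.33 to 0.022), Angpt2 (-0.032 to 0.23) and the Pgf difference in CPM (-0.22 to 0.11). The cause was not tested. The replicate numbers did not pair the mice (correlations of same-numbered deviations -0.05 to 0.04, with 1 of 10 libraries closest to its own number). With the replicate block 1085 genes and 6 other pathway genes passed, and Tek passed at an adjusted p of 0.04999. Sign flips within numbers gave the same ratio differences, 0.79 for Flt1 to Kdr and 0.70 for Flt1 to endothelial markers, at the smallest p of 0.0625 that they allow. That p followed from the levels already given and is no further support. Scaling moved the median log2 fold change of all genes between -0.016 and 0.00019. Depth limits Pgf, Angpt1 and Angpt2, with 49, 124 and 313 counts in all.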
